A study of Mus musculus with 9 samples.

Results

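The replication-dependent histone genes are the clustered genes that make the bulk of the histone protein packaged onto newly copied DNA. Here they are all rows of the gene column whose symbol begins with Hist1h, Hist2h, Hist3h or Hist4h, 68 of the 23279 gene rows. Of these, 54 belong to the Hist1 cluster on mouse chromosome 13, 10 to Hist2 on chromosome 3, 3 to Hist3 on chromosome 11 and 1 to Hist4 on chromosome 6. The rows comprise 6 for linker histone H1, 18 for H2A, 19 for H2B, 12 for H3 and 13 for H4. The rows were picked by symbol alone, but this gene family was chosen with earlier results of these data known.

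A nucleosome wraps DNA around a core of the histones H2A, H2B, H3 and H4, and linker histone H1 binds where the DNA enters and leaves that core. Most clustered histone genes are transcribed in S phase, lack introns, and give an mRNA that ends just after a conserved stem-loop in place of a poly(A) tail. Stem-loop binding protein and the U7 small nuclear ribonucleoprotein direct that cut. Some clustered genes can also give a polyadenylated mRNA from a signal further downstream, a form known from cells that leave the cycle and differentiate. Libraries made from polyadenylated RNA, as here, hold the tailed form by design and the stem-loop form only as carry-over.

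The 9 libraries came from primary pro-B cell cultures, 3 in each of 3 groups: wild-type littermates (WT), Hmgn1-overexpressing mice on C57BL/6 (HMGN1_OE), and Ts1Rhr mice on an FVB x C57BL/6 F1 background, which carry an extra copy of a chromosome segment that holds Hmgn1. The mice were 6 to 8 weeks old, and their marrow was grown in interleukin-7 methylcellulose for 7 days. RNA of an equal number of cells from each culture received 1 µl of ERCC spike-in mix diluted 1:1000. The series title asks whether the extra segment raises transcription as a whole through HMGN1. Not given in the sources used here are the background of the wild-type mice, the promoter of the Hmgn1 transgene and whether samples share an animal. Strain and genotype cannot be told apart. The labels call the 3 libraries of each group biological replicates, and the p-values cover only the spread among these libraries. The labels give 1 cell-type text, which names Ts1Rhr, for every group.

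Hmgn1 stood at 60.1, 67.3 and 58.5 raw FPKM in WT, at 77.2, 71.9 and 73.4 in HMGN1_OE and at 127, 125 and 126 in Ts1Rhr. The 17 pro-B markers tested were above 0 in every library, but 18 myeloid markers were present too, led by the macrophage lysozyme gene Lyz2 at 11934 to 30708 raw FPKM. Ts1Rhr replicate 3 had Ddx3y, a Y-linked gene, at 41.8 raw FPKM and Xist, the RNA of the inactive X, at 0.443, whereas the other libraries had Ddx3y at 0 to 0.0642 and Xist at 94.2 to 193. FPKM tables carry no counts, so the depth of each library is unknown. The libraries are a bulk of cells, so fewer cells of a type and less RNA per cell cannot be told apart.

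The stem-loops are shown first, since whether a transcript runs on past this element bears on what a poly(A) library can hold. The longest coding transcript of each row was taken from GENCODE M21 (build GRCm38). A match to the histone stem-loop consensus was found after its stop codon in 45 of the 67 rows with a coding transcript. In 13 of the 67 the annotated transcript ended at the stop codon, so no element could be found there. In the lines below, each sequence is 16 bases of the sense strand from 5′ to 3′. The 4 bases of the loop are in capitals, between arms of 6 bases that pair with each other.
Hist1h1c: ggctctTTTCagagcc
Hist1h2bg: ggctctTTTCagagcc
Hist1h3c: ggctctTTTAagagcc
Hist1h4i: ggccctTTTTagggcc
Hist1h4m: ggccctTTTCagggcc
All 33 elements of H1, H2A, H2B and H3 genes had the arms seen in the first line, and 25 of them had that whole sequence. The 12 elements of H4 genes had other arms. Of these, 7 had the sequence of Hist1h4m, 2 that of Hist1h4i, 1 differed from both in the loop, and 2 had arms of their own. The H4 elements thus differed from the rest at the stem. The search held 2 of the 4 loop bases at T and let another be only C or T. Shared loops were therefore largely set by the search, which also limited where the arms could differ.

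The promoters of 3 detected rows are shown because 2 of them, a linker and an H2B gene, were lower in Ts1Rhr without overlap on raw FPKM and the third, an H4 gene, was not. Each line holds the 250 bases before the transcript start from RefSeq (build GRCm38.p6), 5′ to 3′ on the gene's strand. Capitals mark 3 motifs searched on both strands, none of which contains another. TATAAA is a form of the TATA box, but a match was counted anywhere in the 250 bases. It lies 43 bases before the start in Hist1h2bg and 137 bases before it in Hist1h4i. CCAAT is bound by the factor NF-Y. The octamer ATTTGCAT is bound by Oct-1, the product of Pou2f1.
Hist1h1c, chr13:23738557-23738806, plus strand: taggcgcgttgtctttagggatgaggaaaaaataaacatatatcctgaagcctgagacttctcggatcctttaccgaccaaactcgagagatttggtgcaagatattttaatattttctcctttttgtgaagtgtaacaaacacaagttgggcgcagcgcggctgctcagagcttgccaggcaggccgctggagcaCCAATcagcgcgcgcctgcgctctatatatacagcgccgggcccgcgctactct
Hist1h2bg, chr13:23571150-23571399, plus strand: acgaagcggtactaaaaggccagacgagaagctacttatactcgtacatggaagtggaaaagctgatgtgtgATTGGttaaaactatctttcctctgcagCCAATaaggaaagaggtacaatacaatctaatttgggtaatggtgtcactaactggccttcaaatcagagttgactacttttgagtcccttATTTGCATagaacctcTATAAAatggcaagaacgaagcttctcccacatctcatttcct
Hist1h4i, chr13:22041363-22041612, minus strand: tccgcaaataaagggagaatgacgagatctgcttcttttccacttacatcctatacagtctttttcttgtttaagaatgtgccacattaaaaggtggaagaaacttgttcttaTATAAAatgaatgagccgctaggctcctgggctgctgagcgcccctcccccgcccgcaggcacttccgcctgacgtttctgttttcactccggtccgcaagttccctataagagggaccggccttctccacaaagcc
A promoter entry was matched for 61 of the 68 rows. TATAAA was present in 29 of the 61 (47.5%), against 13.0% of the 27025 RefSeq promoters cut to the same length. CCAAT was present in 50 of them (82.0% against 34.5%) and ATTTGCAT in 14 (23.0% against 1.61%). The motifs were spread unevenly over the classes. CCAAT occurred in 6 of 6 H1, 17 of 17 H2A, 16 of 16 H2B and 8 of 10 H3 promoters but in 3 of 12 H4 promoters, and the octamer in 7 of 17 H2A and 7 of 16 H2B promoters and in none of H1, H3 or H4. Some H2A and H2B genes lie head to head, such as Hist1h2ae and Hist1h2bg, so that their promoters overlap on opposite strands. A motif in such an overlap, as the octamer of this pair, was counted for each gene, so the promoters counted are not all separate sequences. Among the 14 detected rows with an entry, 6 held TATAAA, 10 CCAAT and 3 the octamer. A match describes these letters only, and the absence of one says nothing of whether a factor binds.

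Most clustered histone rows were near or at 0. FPKM, a count of fragments scaled by transcript length and library size, allows levels to be compared between genes per length, and the raw table holds it before spike-in scaling. A row is called detected here at a mean of at least 1 raw FPKM over the 9 libraries, which 16 of the 68 rows reached. These were 3 of 6 H1 rows, 2 of 18 H2A rows, 5 of 19 H2B rows, 2 of 12 H3 rows and 4 of 13 H4 rows. A further 30 rows were above 0 in some library with a lower mean, and 22 were listed at 0 in every library: 8 of H2A, 8 of H2B, 5 of H4, 1 of H3 and none of H1. The row just inside the threshold was Hist1h2bm, at 1.08, and the row just outside was Hist1h2be, at 0.847, both H2B genes. Of the 52 rows below it, 14 reached 1 raw FPKM in at least 1 library, with a highest value of 4.40 for the H4 gene Hist1h4k. No histone row had an entry of exactly 0.01, the value that can mark a failed estimate in this table.

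The share of the 68 rows in a library's summed raw FPKM was 0.0196% to 0.0404%. One gene, Hist1h2bc, which encodes an H2B, supplied 31.5% to 55.0% of that histone sum. The linker histone gene Hist1h1c was the next highest. The order of mean raw FPKM below them was Hist1h4i at 9.11, Hist1h4m at 7.84, Hist2h2be at 5.63, Hist3h2a at 5.42 and Hist1h4d at 4.76. The levels of Hist1h4i and Hist1h4m, and those of Hist2h2be, Hist3h2a and Hist1h4d, overlapped over the 9 libraries, so their order within these sets is not beyond the spread. The plot of the detected rows shows that the 2 leading rows alone stayed above 10 raw FPKM in every library.

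**Figure D1:**
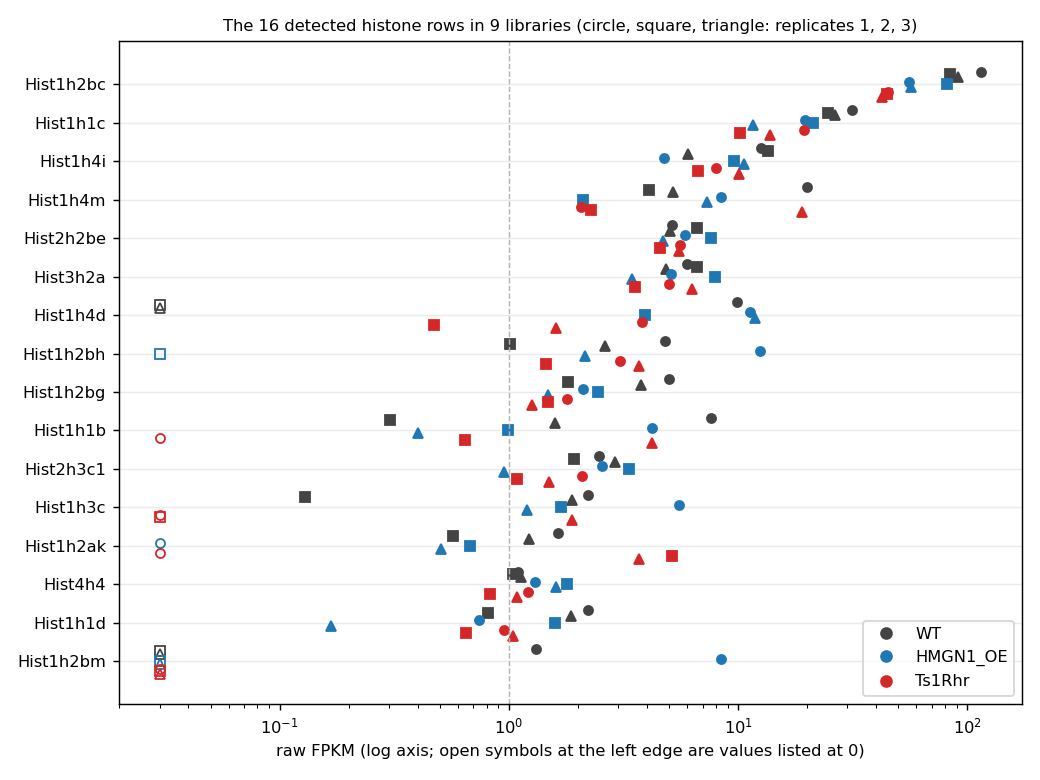
Raw FPKM (log axis) of the 16 detected histone rows, ordered by mean, with 1 symbol per library, coloured by group and shaped by replicate number. Hist1h2bc lies apart on the right, Hist1h1c spans 10.2 to 31.6 raw FPKM and meets the highest values of Hist1h4i and Hist1h4m, and rows from Hist1h4d downwards spread widely, with several libraries listed at 0 (open symbols).

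The detected rows had longer annotated transcripts and more sequence of their own than the rows at 0. The longest coding transcript had a median length of 1147 bases over the 16 detected rows, 529 over the 30 rows with a lower mean and 476 over the 21 rows at 0 that had one. Transcripts over 1000 bases numbered 9 of 16, 5 of 30 and 4 of 21. More than 100 bases followed the stem-loop in 9, 10 and 4 of these rows, and the 3′ UTR held the poly(A) signal AATAAA in 8, 7 and 4. In 2, 5 and 6 rows the annotated transcript ended at the stop codon, so neither could be found there. The transcript of Hist1h1c ran 840 bases past its stem-loop and had AATAAA 20 bases from its end. The longest coding transcript of Hist1h2bc had 2 exons and no stem-loop in its 3′ UTR, where the last AATAAA lay 441 bases from the end. That of Hist2h2be, an H2B gene with 2620 bases, had no stem-loop either and held AATAAA 16 bases from its end. Shorter transcripts of a gene, which may differ in these features, were not used.

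Sequence sharing moved with detection as well. Of the windows of 50 bases in a transcript, the median share found in no other gene was 70.2% in detected rows, 43.5% in rows with a lower mean and 17.2% in rows at 0. The share was under 50% in 3 of 16, 17 of 30 and 14 of 21 rows. A window also counted as shared where another gene model overlaps the same locus, and such overlap was not set apart. The levels of rows with a low share are uncertain, since the treatment of reads that match several genes was not stated in the labels. Among the detected rows this holds for Hist2h3c1, an H3 gene with 0% of windows of its own, Hist1h4m with 10.2% and the H2A gene Hist1h2ak with 43.0%. Hist1h2bc had 69.4% and shared most with Hist1h2bg, which had 50.3%. Hist1h1c had 91.5%. The parts of length and of shared sequence in the levels were not tested.

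**Figure D2:**
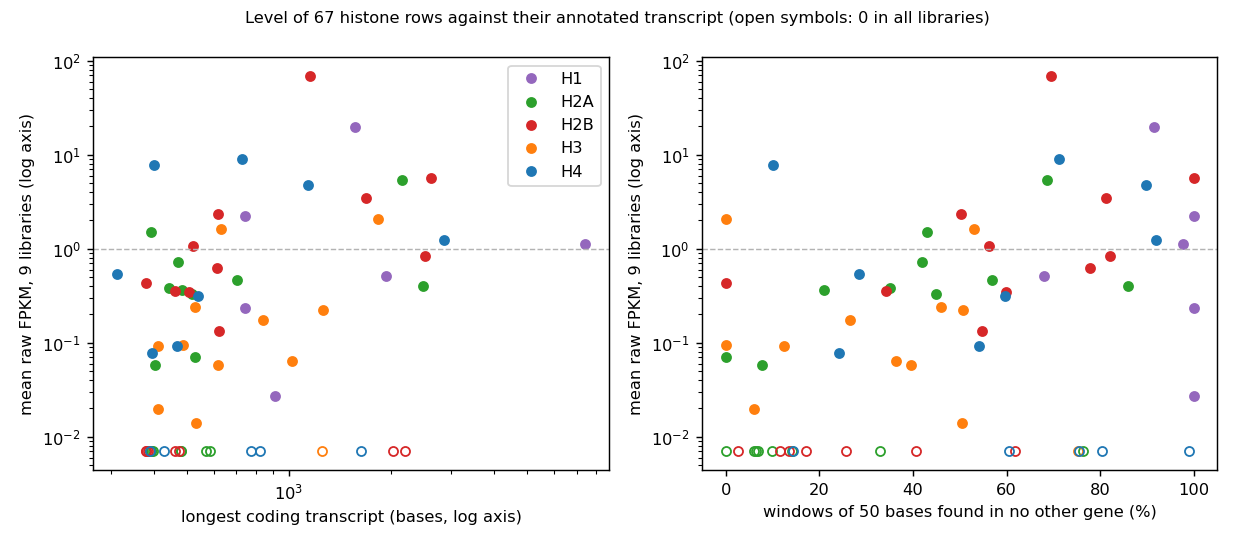
Mean raw FPKM over 9 libraries (log axis) of the 67 histone rows with a coding transcript, against the length of the longest one in bases (left, log axis) and the percentage of its windows of 50 bases found in no other gene (right). Colours give the histone class and open symbols at the bottom are rows at 0 in all libraries, which have a median of 476 bases and 17.2% unique windows.

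Between Ts1Rhr and WT, the linker histone gene Hist1h1c and the H2B gene Hist1h2bc fell on raw FPKM, and no histone row passed on the spike-in normalised values. The test, limma with Benjamini-Hochberg adjustment over 10878 genes and a threshold of 0.05, called 0 of 16 detected rows on the normalised table, where it called 0.57% of all genes (0.147% as lower). At an unadjusted p under 0.05, 2 of the 16 were past it, against 19.5% of all genes. On the raw table it called 2 of 16 rows, both lower, against 8.85% of all genes in either direction and 4.56% lower, and 3 rows were past an unadjusted p of 0.05, against 30.9%. The median log2 fold change of the 16 rows was -0.33 on the normalised table, where that of all tested genes was 0.12, and -0.68 on the raw table, against 0.01. Lower estimates numbered 11 of 16 and 13 of 16, where 40.1% and 48.9% of all genes lay below 0. Without WT replicate 1 the median of the normalised folds was 0.05.

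Hist1h1c encodes the somatic linker histone H1.2. Its raw FPKM was 31.6, 24.7 and 26.5 in WT, 19.5, 21.2 and 11.6 in HMGN1_OE and 19.3, 10.2 and 13.7 in Ts1Rhr. Every WT library was above every library of the other groups. The raw fold of Ts1Rhr over WT was 0.510, a log2 fold change of -0.97 with a standard error of 0.26 (limma, adjusted p = 0.0464). On the normalised table the values were 35.2, 24.3 and 21.6 in WT and 21.6, 10.3 and 12.6 in Ts1Rhr, so the groups met at their edges. The normalised log2 fold change was -0.91 with a standard error of 0.33 (limma, adjusted p = 0.161). The raw call held in 9 of 18 alternatives and was lost without WT replicates 1, 2 or 3, Ts1Rhr replicates 2 or 3, or HMGN1_OE replicate 1, with adjusted p from 0.0268 to 0.187 over all of them (limma).

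The other detected linker rows were lower and uneven. Hist1h1b, which encodes H1.5, stood at 7.64, 0.302 and 1.59 raw FPKM in WT, at 4.23, 0.987 and 0.402 in HMGN1_OE, and at 0, 0.647 and 4.23 in Ts1Rhr. All 3 groups overlapped, and the spread inside each exceeded the distance between them. Hist1h1d, which encodes H1.3, lay between 0.168 and 2.21 raw FPKM over the 9 libraries. Neither passed in any comparison on either table.

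Hist1h2bc was the member with the clearest separation. Its raw FPKM was 115, 84.0 and 91.1 in WT, 55.5, 81.8 and 56.6 in HMGN1_OE and 44.9, 44.4 and 42.7 in Ts1Rhr. The 3 groups did not overlap, and the Ts1Rhr libraries were the closest to each other. The raw fold of Ts1Rhr over WT was 0.459, a log2 fold change of -1.12 with a standard error of 0.18 (limma, adjusted p = 0.0255). Normalised values were 144, 88.4 and 72.3 in WT, 53.8, 114 and 58.5 in HMGN1_OE and 46.8, 43.5 and 38.9 in Ts1Rhr. Ts1Rhr lay below both other groups there too, while HMGN1_OE replicate 2 lay above 2 of the WT libraries. The normalised log2 fold change of -1.18 had a standard error of 0.31 and did not pass (limma, adjusted p = 0.0842), but did without HMGN1_OE replicate 2 (adjusted p = 0.045), with a range of 0.0246 to 0.305 over 20 alternatives. The raw call was lost without WT replicate 1 (adjusted p = 0.12), WT replicate 3 (0.0919), Ts1Rhr replicate 2 (0.106) or Ts1Rhr replicate 3 (0.0767), with the log2 fold change at -1.16 to -0.99, and limma then called 1 to 3 genes in all.

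**Figure D3:**
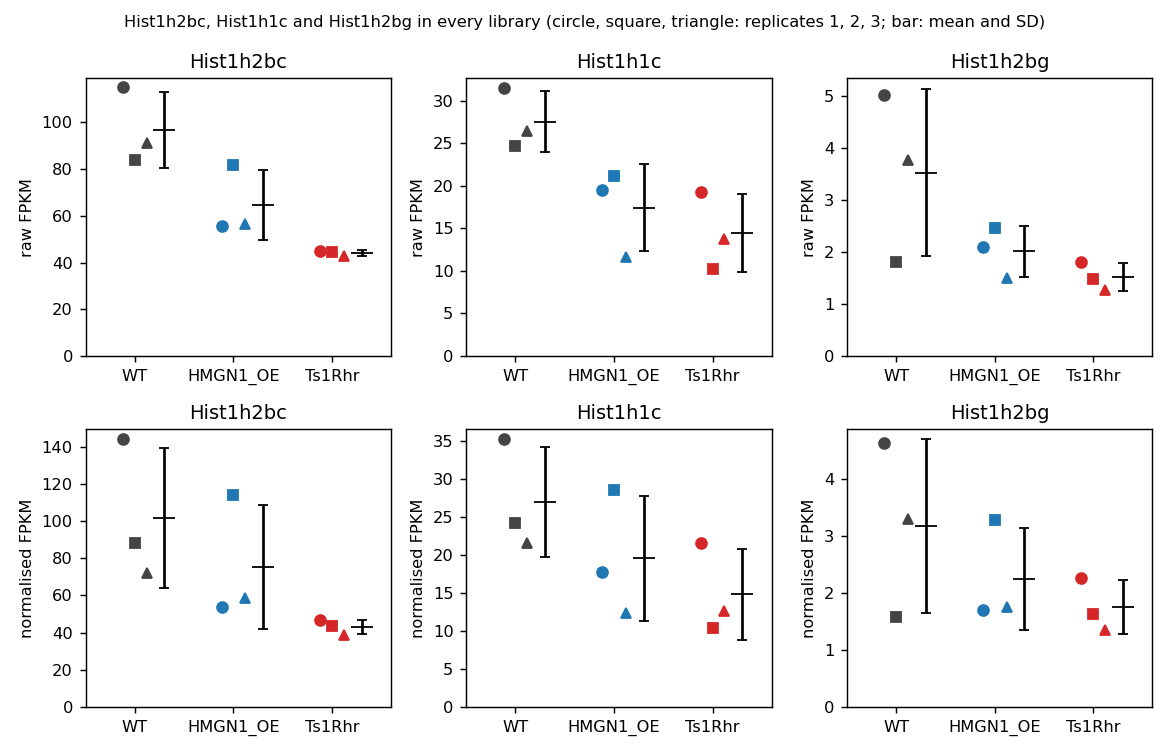
Raw (top) and normalised (bottom) FPKM of Hist1h2bc, Hist1h1c and Hist1h2bg in each library, by group, with the mean and SD of 3 libraries beside the points. Hist1h2bc in Ts1Rhr lies at 42.7 to 44.9 raw FPKM, below all 6 libraries of the other groups. Normalisation widens the SD of Hist1h2bc from 16.4 to 37.7 in WT, 14.8 to 33.4 in HMGN1_OE and 1.18 to 3.95 in Ts1Rhr.

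Hist1h2bg, the detected H2B gene that shares most sequence with Hist1h2bc, showed a smaller separation. Of its windows of 50 bases, 45.0% also occur in the far higher Hist1h2bc, and the part of shared reads in its level was not tested. Hist1h2bg stood at 5.01, 1.81 and 3.76 raw FPKM in WT, at 2.10, 2.46 and 1.49 in HMGN1_OE, and at 1.80, 1.47 and 1.26 in Ts1Rhr. Ts1Rhr and WT nearly met, at WT replicate 2 and Ts1Rhr replicate 1. The raw log2 fold change was -1.07 with a standard error of 0.38 and did not pass (limma, adjusted p = 0.0858), but did without WT replicate 2 (adjusted p = 0.0454). Counting Hist1h1c, Hist1h2bc and Hist1h2bg, 3 of 16 rows were lower in Ts1Rhr without overlap on raw FPKM, against 18.5% of all genes, and on normalised values Hist1h2bc alone was, against 8.43%. The count on raw FPKM is close to the share among all genes.

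The other H2B rows did not separate the groups. Hist2h2be was the steadiest detected row, at 5.13, 6.65 and 5.03 raw FPKM in WT, 5.86, 7.62 and 4.72 in HMGN1_OE and 5.60, 4.54 and 5.52 in Ts1Rhr. Its normalised log2 fold change of Ts1Rhr over WT was 0.13 with a standard error of 0.31, and the groups overlapped. Hist1h2bh stood at 4.80, 1.01 and 2.62 raw FPKM in WT, at 12.5, 0 and 2.15 in HMGN1_OE and at 3.06, 1.45 and 3.70 in Ts1Rhr. HMGN1_OE thus held both its highest and its lowest value. Hist1h2bm was listed at 0 in 7 of 9 libraries and owed its place to HMGN1_OE replicate 1 at 8.43 raw FPKM and WT replicate 1 at 1.31. A single library thus decided whether that row counted as detected.

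The 2 detected H2A rows were Hist3h2a and Hist1h2ak. Hist3h2a stood at 5.97, 6.59 and 4.87 raw FPKM in WT, 5.11, 7.96 and 3.45 in HMGN1_OE and 5.02, 3.56 and 6.27 in Ts1Rhr. The 3 groups overlapped, with a normalised log2 fold change of -0.03 and a standard error of 0.36 for Ts1Rhr over WT. Hist1h2ak was at 0.504 to 5.14 raw FPKM in the libraries where it was above 0, and was listed at 0 in HMGN1_OE replicate 1 and Ts1Rhr replicate 1.

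Among H3 rows, Hist2h3c1 stood at 2.47, 1.93 and 2.91 raw FPKM in WT, 2.55, 3.35 and 0.950 in HMGN1_OE and 2.09, 1.08 and 1.50 in Ts1Rhr. All windows of 50 bases in its transcript also occur in another gene model. Whether that model is a separate copy or overlaps the same locus was not checked. Hist1h3c stood at 2.22, 0.129 and 1.88 in WT, 5.55, 1.68 and 1.20 in HMGN1_OE and 0, 0 and 1.88 in Ts1Rhr. Both rows overlapped between all groups and neither passed in any comparison.

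Of the 4 detected H4 rows, Hist1h4i, Hist1h4m and Hist1h4d varied widely between libraries of 1 group, and Hist4h4 varied less. All H4 genes encode the same protein, so these rows differ as genes and not as products. Hist1h4i stood at 12.6, 13.5 and 6.04 raw FPKM in WT, 4.74, 9.62 and 10.6 in HMGN1_OE and 8.04, 6.69 and 10.1 in Ts1Rhr. Hist1h4m stood at 19.9, 4.09 and 5.19 in WT, 8.43, 2.12 and 7.34 in HMGN1_OE and 2.07, 2.29 and 19.1 in Ts1Rhr. The highest values of Hist1h4m came from 1 library of WT and 1 of Ts1Rhr, and both rows overlapped between all groups.

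Hist1h4d stood at 9.91, 0 and 0 raw FPKM in WT, at 11.3, 3.91 and 11.8 in HMGN1_OE and at 3.82, 0.469 and 1.60 in Ts1Rhr. All HMGN1_OE libraries were above all Ts1Rhr libraries, while WT held both a high value and values listed at 0. Its normalised log2 fold change of HMGN1_OE over WT, 4.39 with a standard error of 1.24, rests on the WT libraries listed at 0 and did not pass (limma, adjusted p = 0.27). Without WT replicate 1, which leaves only WT libraries listed at 0, Hist1h4d was called higher in HMGN1_OE (limma, adjusted p = 0.000242) and in Ts1Rhr (adjusted p = 0.0174). Hist4h4, the row of the Hist4 cluster, lay between 0.823 and 1.79 raw FPKM over the 9 libraries.

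In HMGN1_OE against WT, no histone row passed on either table. Limma called 0 of 16 on normalised values, where it called 0.0919% of all genes, and 1 row, Hist1h4d, was past an unadjusted p of 0.05, against 11.7% of all genes. On raw FPKM it called 0 of 16, against 0.0368% of all genes, and 3 rows were past an unadjusted p of 0.05, against 14.6%. The median log2 fold change of the 16 rows was -0.10 on normalised values, against 0.21 over all genes, and -0.37 on raw FPKM, against 0.01. Hist1h2bc had a raw log2 fold change of -0.59 with a standard error of 0.18 (limma, adjusted p = 0.288). Hist1h1c had a raw log2 fold change of -0.70 with a standard error of 0.26 (limma, adjusted p = 0.298). These 2 rows were lower without overlap on raw FPKM, against 8.25% of all genes, and Hist4h4 was higher without overlap, against 9.81%. On normalised values no row was free of overlap, against 17.4% of all genes. Both comparisons with wild type use the same WT libraries.

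Between Ts1Rhr and HMGN1_OE, limma called 0 of 16 rows on each table, and 0.0% of all genes. Past an unadjusted p of 0.05 were 2 of 16 rows on normalised values, against 4.37% of all genes. They were Hist1h2bc, with a log2 fold change of -0.73 and a standard error of 0.31, and Hist1h3c, with -3.16 and 1.10, which rests on the Ts1Rhr libraries listed at 0. Hist1h2bc and Hist1h4d were lower in Ts1Rhr without overlap on normalised values, against 6.6% of all genes. On raw FPKM Hist4h4 joined them, against 5.99%. Past an unadjusted p of 0.05 on raw FPKM were the rows Hist1h2bc and Hist1h3c, against 8.85% of all genes. The difference between the mutant groups in Hist1h2bc was thus not beyond the test on normalised values (limma, adjusted p = 0.989) or on raw FPKM (adjusted p = 0.537).

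The tested myeloid and stromal markers had lower estimates in Ts1Rhr, as the 2 leading rows did, and markers of other cell types went both ways. Of 18 myeloid markers, 17 were tested, and all 17 had lower estimates in Ts1Rhr than in WT on both tables. Limma called 6 of them lower on raw FPKM and 0 on normalised values, where 8 were past an unadjusted p of 0.05. Over all genes these shares were 4.56% lower on raw FPKM, 0.147% lower on normalised values and 19.5% past the unadjusted p. Their summed raw FPKM was 36689, 24326 and 24516 in WT, 20103, 29545 and 14133 in HMGN1_OE and 17850, 17278 and 15484 in Ts1Rhr. WT replicate 1 and HMGN1_OE replicate 2 were the highest of their groups in this sum and also in Hist1h2bc, and Ts1Rhr lay below WT in both. Of the 18, only Elane, a neutrophil protease gene, was at 0 in any library. The 8 stromal markers summed to 89.7 to 134 raw FPKM in WT, 5.88 to 17.1 in HMGN1_OE and 7.17 to 18.6 in Ts1Rhr, with Col1a1 at 0 in some library, and all 6 that were tested fell in Ts1Rhr on both tables (limma). WT replicate 2 was highest of WT in the stromal sum but lowest in Hist1h2bc, and HMGN1_OE replicate 2 the reverse. Among other lists, the 1 tested megakaryocyte marker and 1 of 4 plasma cell markers fell in Ts1Rhr on raw FPKM. The 1 tested erythroid marker rose (limma, adjusted p = 0.0277), and the 1 tested T and NK marker had a higher estimate. Over all genes 4.56% were called lower and 4.29% higher. The part of myeloid or stromal cells in the levels of Hist1h2bc and Hist1h1c was not tested.

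Apart from the 2 leading rows, the histone sum followed single libraries and not groups. Without Hist1h2bc and Hist1h1c, the remaining 66 rows summed to 92.3, 45.3 and 48.0 raw FPKM in WT, 82.2, 48.2 and 51.9 in HMGN1_OE and 38.4, 34.6 and 79.0 in Ts1Rhr. WT replicate 1, HMGN1_OE replicate 1 and Ts1Rhr replicate 3 each stood above the others of their group. Rows at 1 raw FPKM or more numbered 19, 11 and 16 in WT, 18, 13 and 12 in HMGN1_OE and 12, 10 and 21 in Ts1Rhr, again with those libraries highest. The ribosomal RNA row Rn45s, which is not polyadenylated, stood at 10510, 1184 and 3043 raw FPKM in WT, 4495, 2323 and 1082 in HMGN1_OE and 956, 325 and 3095 in Ts1Rhr. Its highest library in each group was the one with the highest histone sum. Rows of small nucleolar and Cajal body RNAs did not share that order in Ts1Rhr, where replicate 3 was lowest at 9005 against 17133 and 17941 summed raw FPKM, nor in HMGN1_OE, where replicate 3 was highest at 7804. Carry-over of untailed RNA and the sex of Ts1Rhr replicate 3 were not tested as parts of these differences.

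**Figure D4:**
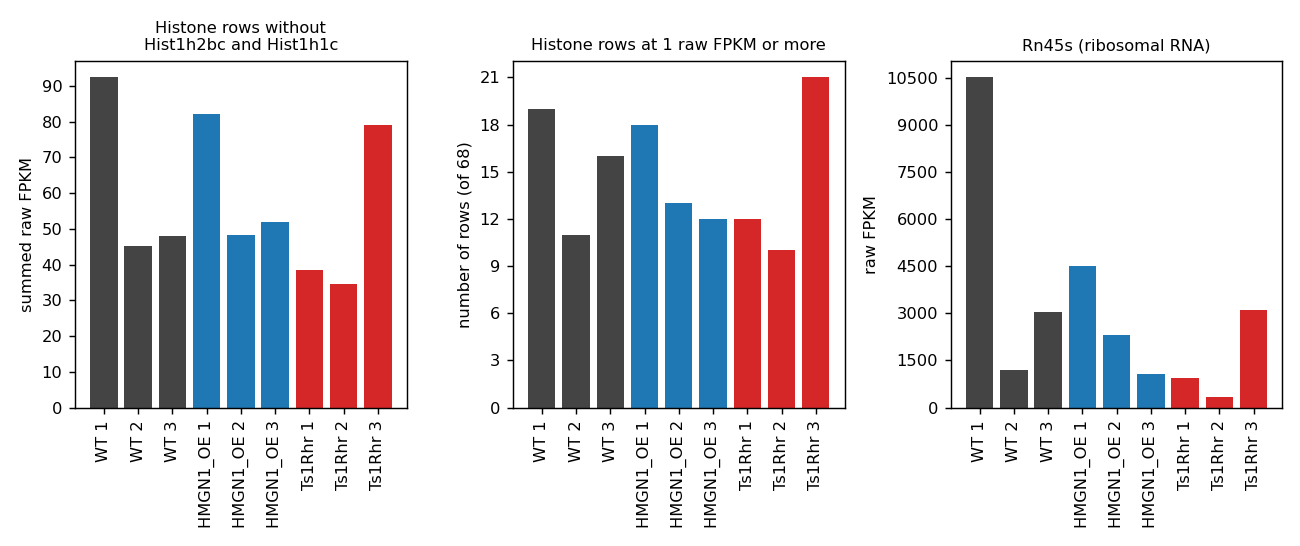
Per library, the summed raw FPKM of the 66 histone rows other than Hist1h2bc and Hist1h1c (left), the number of the 68 rows at 1 raw FPKM or more (middle) and the raw FPKM of Rn45s (right), coloured by group. WT replicate 1, HMGN1_OE replicate 1 and Ts1Rhr replicate 3 are the highest of their group in all 3 panels.

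Most genes of DNA replication had higher estimates in Ts1Rhr, whereas most detected clustered rows had lower ones. The DNA replication list holds 28 genes for helicase, polymerase and nucleotide supply, all tested. On raw FPKM 17 of them rose in Ts1Rhr, with log2 fold changes of 0.61 to 1.17 (limma, adjusted p from 0.0255 to 0.0479), against 4.29% of all genes called higher. On normalised values 2 rose, against 0.423%: Pola1, a DNA polymerase subunit, by a log2 fold change of 1.08, and Rfc3, a clamp loader subunit, by 1.19 (limma, adjusted p = 0.0481 for each). The list's median log2 fold change was 0.67 on both tables. The helicase genes Mcm2, Mcm3 and Mcm4 had raw means of 34.7, 71.4 and 26.9 FPKM in WT and 52.9, 115 and 40.5 in Ts1Rhr, and Mcm2 and Mcm3 passed on that table. Of the 17 pro-B markers, 7 rose too on raw FPKM, and the part of the cell mixture in the replication list was not tested. These raw calls have the limit given above for the myeloid markers: without WT replicate 1, limma called 1 gene in all. In HMGN1_OE the list's median was 0.68 on normalised values, and limma called 0 of 28, with 18 past an unadjusted p of 0.05, against 11.7% of all genes.

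Of 16 genes for histone gene transcription, all tested, 4 rose in Ts1Rhr on raw FPKM: Ccne2, Ccna2, Cdc25a and Nfyb, against 4.29% of all genes. Ccne2, the cyclin E2 gene, also rose on normalised values, by a log2 fold change of 1.52 (limma, adjusted p = 0.0209), where 0.423% of all genes did. The raw log2 fold changes of the cyclin gene Ccna2, the phosphatase gene Cdc25a and the CCAAT-binding factor gene Nfyb were 0.71, 0.69 and 0.65. Npat, the cyclin E substrate that activates histone genes, was at 4.62 raw FPKM in WT and 5.78 in Ts1Rhr and did not pass. The H4 promoter factor gene Hinfp, at 6.96 and 7.79, and Yy1, at 37.5 and 45.8, did not pass either. The list's median log2 fold change was 0.48 on normalised values.

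Of 18 genes for histone pre-mRNA processing and decay, 17 were tested and 3 rose in Ts1Rhr on raw FPKM, against 4.29% of all genes. They were Casp8ap2, a factor at histone locus bodies, by 0.71, the cleavage factor gene Cstf2 by 0.68, and Eri1, an exonuclease that acts on the histone stem-loop, by 0.56 on the log2 scale. On normalised values limma called 0 of 17, with 5 past an unadjusted p of 0.05, against 19.5% of all genes. Slbp, which encodes the stem-loop binding protein, was at 133 raw FPKM ± 24.9 (SD, n = 3) in WT and 204 ± 42.1 in Ts1Rhr, with a raw log2 fold change of 0.62 that did not pass (limma, adjusted p = 0.0615). The U7 particle genes Lsm10 and Lsm11 were at 5.06 and 2.41 raw FPKM in WT and 5.31 and 2.11 in Ts1Rhr.

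Of 24 histone chaperone genes, 23 were tested, and 7 rose in Ts1Rhr on raw FPKM: Asf1b, Chaf1a, Chaf1b, Nasp, Rbbp4, Anp32e and Set. Among all genes 4.29% were called higher there, and 0.423% on normalised values. Their raw log2 fold changes lay between 0.53 and 0.97. Chaf1b, part of the CAF-1 complex that loads new H3 and H4, passed on normalised values too, at 1.07 (limma, adjusted p = 0.0481), and it lies in the segment that Ts1Rhr mice carry in an extra copy. Raw means were 15.8 FPKM in WT and 21.2 in Ts1Rhr for Asf1a, 24.5 and 37.7 for Asf1b, and 19.1 and 31.9 for Chaf1a.

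Many histone genes outside the clusters are expressed through the cell cycle and give polyadenylated mRNA. Those listed here summed to far more raw FPKM than the clustered rows. The 11 rows summed to 1982 to 2095 raw FPKM in WT, 2252 to 2701 in HMGN1_OE and 2645 to 3641 in Ts1Rhr, where the 68 clustered rows summed to 154 to 239, 120 to 157 and 89.2 to 135. The sums of WT and Ts1Rhr did not overlap for either set, and lay in opposite order. Without Hist1h2bc and Hist1h1c, however, the clustered sums overlapped, at 45.3 to 92.3 in WT and 34.6 to 79.0 in Ts1Rhr. H2afz, which encodes the variant H2A.Z, held most of the first sum, at 1388 ± 87.4 raw FPKM (SD, n = 3) in WT and 2198 ± 592 in Ts1Rhr, with a raw log2 fold change of 0.63 that did not pass (limma, adjusted p = 0.0785). Of the 9 tested, H2afy, the macroH2A gene, rose by 0.67 (limma, adjusted p = 0.0349) and H1f0, the linker histone gene of quiescent and differentiated cells, fell by 0.51 (adjusted p = 0.0476) on raw FPKM, where 4.29% of all genes were called higher and 4.56% lower. On normalised values limma called 0 of 9, with 2 past an unadjusted p of 0.05, close to the 19.5% of all genes. H2afv and H2afx were at 31.9 and 48.0 raw FPKM in WT and 66.1 and 68.3 in Ts1Rhr and did not pass.

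**Figure D5:**
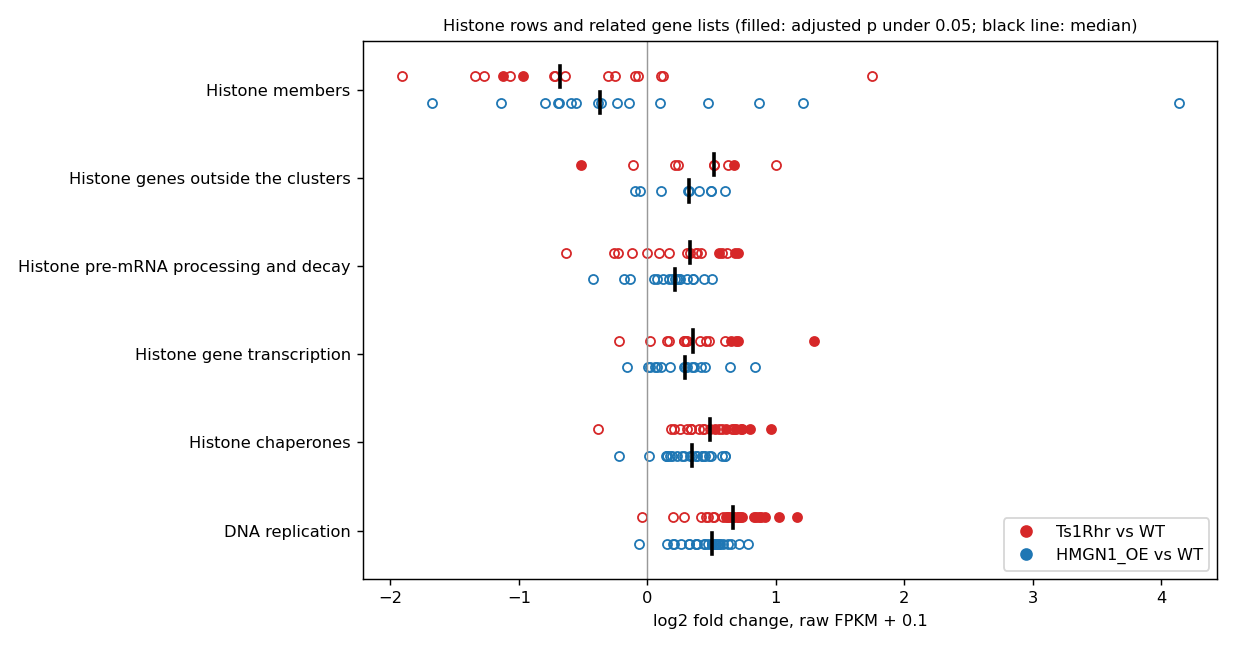
Log2 fold change on raw FPKM + 0.1 of each tested gene of the clustered histone rows and the related lists, for Ts1Rhr (red) and HMGN1_OE (blue) over the same WT libraries, with filled symbols for an adjusted p under 0.05 and a black line at each list's median. The clustered rows have medians of -0.68 and -0.37, while the median of every other list lies above 0 in both comparisons.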

How the data were processed

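The authors deposited raw and normalised FPKM for each library in separate tables. Per the submitters' processing notes, HISAT, Cufflinks 2.0.0 and mm9 were used; the annotation, settings and normalisation formula were not stated there. Of 23398 rows, 92 spike-ins and 27 rows with dates as symbols were set aside. Genes averaging 1 raw FPKM or more (10878) were tested with limma 3.58.1 (R 4.3.3), using trended variances, a mean per group over all 9 libraries, and Benjamini-Hochberg adjustment of two-sided p. Normalised values entered as log2, and raw values as log2(FPKM + 0.1), which understates the folds of low genes. The fit was tested on simulated data. Every detected row is named, with each library's value for the 12 highest and for rows past the test or without overlap on normalised values. Members and lists were chosen with earlier results of these data known. Stem-loops, lengths and shared windows of 50 bases came from GENCODE M21 and promoters from RefSeq. Both use GRCm38 and the files mm9, so the only coordinates given are those of the printed promoters. Alternatives covered the table, scaling, pseudocount, filter, trend, samples in the fit, pairing and leaving out each library. Tables were processed with Python 3.11.15.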

Additional observations from a re-analysis of the deposited data

How the results depend on the processing

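On normalised values, the count of 0 histone rows called in Ts1Rhr against WT became 2 on the raw table, 2 with all libraries shifted to the same median and 1 with only these 2 groups in the fit. It ranged from 0 to 1 when a library was left out: 1 without WT replicate 1 (Hist1h4d) and 1 without HMGN1_OE replicate 2 (Hist1h2bc). In HMGN1_OE against WT it became 1, Hist1h4d, with a replicate block (limma, adjusted p = 0.0187) and ranged from 0 to 1 when a library was left out. In Ts1Rhr against HMGN1_OE it was 0 under every alternative on both tables. On raw FPKM, the count of 2 in Ts1Rhr against WT became 1 without the filter on low values, 1 without the intensity trend and 1 with a replicate block, each time losing Hist1h1c, and ranged from 0 to 2 when a library was left out. It was 0 without WT replicate 1, WT replicate 3, Ts1Rhr replicate 2 or Ts1Rhr replicate 3. On raw FPKM in HMGN1_OE against WT it ranged from 0 to 1, with the 1 reached without WT replicate 1. Equal replicate numbers did not pair the samples: their deviations correlated at -0.13 to 0.16. The cause of these changes was not tested. Of 1332 fold changes of the 12 highest rows under the alternatives, 75 changed sign, none of them called, and 11 gained and 13 lost a call. Leaving out a library moved the median of the 16 rows between -0.63 and 0.05 in Ts1Rhr, and between -0.32 and 0.16 in HMGN1_OE. The unknown depth limits what rows near 1 FPKM can show.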
